A study of Mus musculus with 2 samples.

Results

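The genes described here are the 10 members of the AP-1 transcription factor family named Fos, Fosb, Fosl1, Fosl2, Jun, Junb, Jund, Atf3, Maff and Jdp2, found by symbol among the 23284 genes of the count files. All 10 were present, and all 10 had a mean over the libraries of at least 1 CPM, a unit of counts scaled to library size. They were picked with earlier results from these same libraries known, so their values are a description and carry no test. The study compared 2 libraries of cultured primary mouse hepatocytes from C57BL/6 mice, one given lentivirus expressing an shRNA against the histone demethylase JMJD3 (gene Kdm6b) and one given control lentivirus. Each library came from the pooled hepatocytes of 5 mice, so there is no replicate in either group. Both cultures were infected 24 h after plating and held for 48 h, and both then received forskolin (10 μM, 6 h) in 5 mM glucose. Forskolin raises cyclic AMP, so the control is not a resting state. The comparison therefore bears on how AP-1 transcripts differ under JMJD3 knockdown in cells that already receive a cyclic AMP stimulus.

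AP-1 is a dimer of proteins that share a basic DNA-binding region and a leucine zipper. JUN proteins can pair with themselves or with FOS proteins, whereas FOS proteins need a JUN partner. ATF3, JDP2 and the small MAF protein MAFF belong to the wider zipper family and lack, or largely lack, the activating region of FOS and JUN. Fos, Fosb and Junb are immediate early genes, transcribed within minutes of growth factor, stress or cyclic AMP signals, and Jun is needed in the mouse for liver regeneration. Cyclic AMP reaches such genes through CREB, which binds the cyclic AMP response element (CRE).

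The knockdown library held 18334366 counts over 16282 genes and the control library 11099562 counts over 15856 genes. Kdm6b was at 33.0 CPM in the knockdown library and 90.7 CPM in the control library, so that its log2 ratio was -1.46 (95% counting interval -1.60 to -1.31). The 6 hepatocyte markers sought summed to 5394 CPM in the knockdown library and 6575 CPM in the control library. Most of that sum was Trf, at 4254 CPM under knockdown and 4282 CPM in control. By the rule of size given below, 3 of the 6 were lower and 0 higher, with a median log2 ratio of -0.75, among them Alb at 794 CPM under knockdown and 1519 CPM in control, and Cps1 at 3.87 CPM under knockdown and 223 CPM in control. The macrophage list of 7 symbols held 6 genes, all in the files, since Adgre1 and Emr1 name the same gene. They summed to 27.6 CPM in the knockdown library and 25.6 CPM in the control library, with the Kupffer cell marker Clec4f at 0 in both. In either direction 0 of 5 measured macrophage markers passed. The stellate and fibroblast list of 7 summed to 173 CPM under knockdown and 192 CPM in control, and the endothelial list of 6 to 42.9 CPM under knockdown and 50.3 CPM in control. In each of these lists 6 markers were measured, 2 were lower and 0 higher. The 5 cholangiocyte markers summed to 8282 CPM under knockdown and 7974 CPM in control, nearly all of it Spp1, and 3 of the 5 were higher and 0 lower. By the same rule 15.3% of all measured genes were higher and 12.8% lower, and the marker lists are short. The part of cell composition in the AP-1 values was not tested, and in bulk RNA fewer cells of a type and less RNA per cell cannot be told apart.

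In the knockdown library 7 of the 10 genes were higher and 0 were lower. To be called higher or lower, a gene had to differ by 1.5-fold or more between the libraries with a 95% counting interval that left out 1. By that rule 15.3% of 12607 measured genes were higher and 12.8% were lower. The higher genes were Fos, Fosb, Fosl1, Junb, Atf3, Jdp2 and Maff. The others, Fosl2, Jun and Jund, had ratios a little below 1. The median log2 ratio of the 10 genes was 1.35, and that of all measured genes was 0.00. The 3 genes that did not pass were 3 of the 4 most abundant members in control, and Junb was the exception among abundant members. Under a rule of 2-fold, which 7.35% of measured genes passed as higher, the same 7 members passed. With a minimum of 5 CPM, 7 members were measured and 4 of them were higher, beside 15.0% of 10670 genes.

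The promoters are shown because the family divided into genes that passed and genes that did not, and because all cells had received a cyclic AMP stimulus. RefSeq promoter windows on GRCm38.p6, running from 250 bases before to 50 bases after an annotated start, were on hand for 9 of the 10 genes in 13 windows, with several starts for Maff and Jdp2. The gene not matched was Fosl1. The windows were searched on both strands for the CRE core TGACG, the full CRE TGACGTCA (which contains the core on both strands), the AP-1 site TGANTCA and the serum response CArG box. A looser form, TGANNTCA, was added after the sequences had been seen, and the full CRE is one case of it. The 150 bases before the start are printed 5′ to 3′ on the gene's strand, with matches in capitals. The first group holds genes that passed as higher, each with the window that holds the match nearest to its start.

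Fos (chr12:85473740-85473889, plus strand): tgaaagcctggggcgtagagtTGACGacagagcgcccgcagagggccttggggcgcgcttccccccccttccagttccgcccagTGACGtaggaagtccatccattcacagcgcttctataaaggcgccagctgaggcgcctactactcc
Fosb (chr7:19310046-19310195, minus strand): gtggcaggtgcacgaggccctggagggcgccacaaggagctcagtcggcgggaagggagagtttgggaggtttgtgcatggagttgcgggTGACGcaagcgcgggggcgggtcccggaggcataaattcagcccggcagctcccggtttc
Junb (chr8:84978749-84978898, minus strand): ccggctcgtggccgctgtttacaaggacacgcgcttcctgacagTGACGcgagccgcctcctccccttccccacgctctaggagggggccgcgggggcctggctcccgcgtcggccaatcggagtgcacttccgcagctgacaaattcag
Atf3 (chr1:191183334-191183483, minus strand): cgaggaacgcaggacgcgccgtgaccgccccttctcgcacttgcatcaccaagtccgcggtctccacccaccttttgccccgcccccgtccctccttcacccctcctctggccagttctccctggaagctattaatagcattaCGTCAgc
Maff, start 2 (chr15:79347370-79347519, plus strand): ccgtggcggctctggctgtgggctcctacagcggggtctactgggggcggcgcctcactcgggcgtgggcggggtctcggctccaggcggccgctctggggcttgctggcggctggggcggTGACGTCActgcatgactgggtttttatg
Jdp2, start 2 (chr12:85599266-85599415, plus strand): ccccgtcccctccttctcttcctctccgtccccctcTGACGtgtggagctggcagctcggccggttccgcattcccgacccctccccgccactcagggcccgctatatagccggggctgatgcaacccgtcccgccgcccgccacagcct

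The second group holds the genes that did not pass.

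Jun (chr4:95052223-95052372, minus strand): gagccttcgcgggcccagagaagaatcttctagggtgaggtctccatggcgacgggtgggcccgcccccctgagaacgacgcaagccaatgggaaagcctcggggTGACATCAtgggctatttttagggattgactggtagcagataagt
Jund (chr8:70697589-70697738, plus strand): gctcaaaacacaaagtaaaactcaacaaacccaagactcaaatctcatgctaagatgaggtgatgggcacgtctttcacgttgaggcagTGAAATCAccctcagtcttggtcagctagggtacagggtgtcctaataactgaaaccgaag
Fosl2 (chr5:32136322-32136471, plus strand): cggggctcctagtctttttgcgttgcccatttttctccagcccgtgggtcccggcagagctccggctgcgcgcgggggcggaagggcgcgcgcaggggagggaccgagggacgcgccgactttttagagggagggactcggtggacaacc

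Each of the 6 higher genes with a window held the CRE core in at least 1 of them, and it was found in none of the windows of Jun, Jund and Fosl2. In Fos it lay at bases -129 to -125 and again at -66 to -62 before the start. The copies in Fosb (-60 to -56) and Junb (-106 to -102) were single. The copy in Atf3 (-7 to -3) was on the opposite strand. Maff held the only full CRE of the family, at -29 to -22 of its start 2, and the window of its start 3 had a core at -122 to -118. In Jdp2 the core was at -114 to -110 of start 2 among 3. The looser form was found in genes of both kinds. Jun and start 3 of Maff both held TGACATCA at -45 to -38, Jun also held TGAGCTCA at 3 to 10 after its start, and Jund held TGAAATCA at -61 to -54.

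Across all 32851 windows the core was present in 20.8%, the full CRE in 1.79%, the looser form in 14.1%, the AP-1 site in 7.81% and the CArG box in 1.63%. No member window held the AP-1 site or the CArG box, which says only that these letters are not in these 300 bases. Among measured genes with a window the core is more common, in 3206 of 9074 (35.3%). Of the members, 7 of 13 windows and 6 of 9 genes held it. Maff and Jdp2 had several windows each, and so more places for a match, and the groups printed above were set by the calls themselves. Measured genes with the core were higher in 12.9% of cases and measured genes without it in 16.3%. Over all measured genes, then, the core did not go with a larger share of higher genes, and matching letters do not show that a factor binds there.

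**Figure D1:**
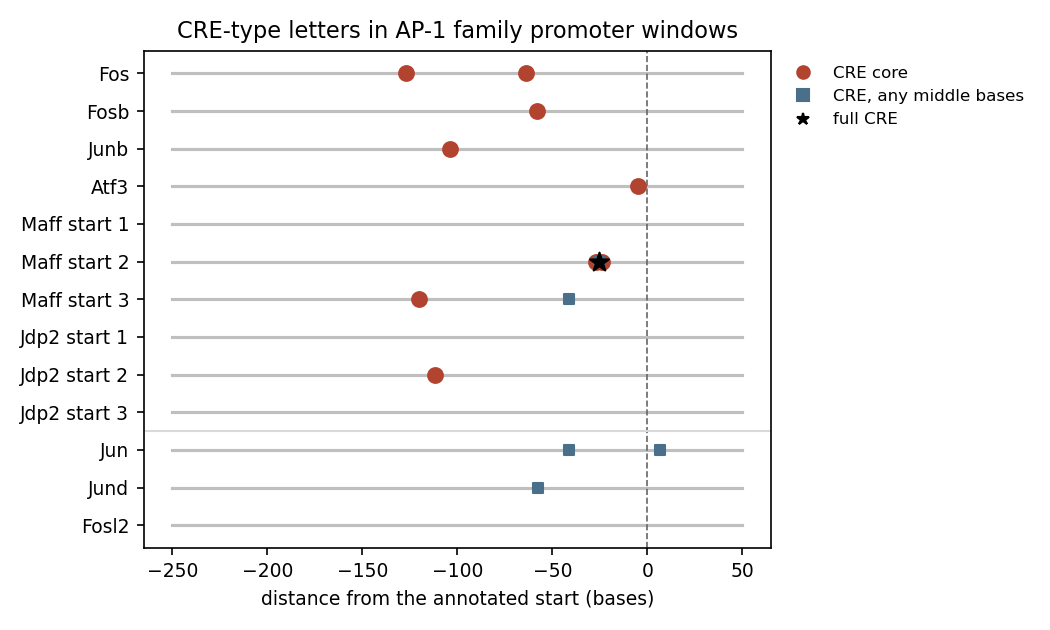
Position of CRE-type letters in the promoter windows of 9 AP-1 family genes, in bases from the annotated start (dashed line). Genes above the grey line passed as higher under knockdown and those below it did not pass. Circles mark the core TGACG on either strand, squares the looser TGANNTCA and the star the full CRE of Maff, which is also a match to the other forms.

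Among the FOS genes, Fos, Fosb and Fosl1 were low in both libraries and higher under knockdown. Fos (mm9 chr12:86814851-86818219, plus strand, 4 exons), the founding member and partner of JUN, had 143 counts (7.90 CPM) in the knockdown library, against 18 counts (1.60 CPM) in the control library. The ratio was 4.93 (3.01 to 8.56). Fosb (chr7:19888045-19895394, minus strand, 4 exons), its close relative, had 134 counts (7.40 CPM) under knockdown and 16 counts (1.42 CPM) in control. Its ratio was 5.20 (3.09 to 9.36). The intervals of these ratios overlap almost fully, so the responses of Fos and Fosb could not be told apart at this depth. Counts per gene do not separate the full-length Fosb message from its shorter splice form. Of the 12607 measured genes, 96 had a ratio above that of Fosb and 108 one above that of Fos.

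Fosl1 (chr19:5447698-5455938, plus strand, 4 exons) encodes FRA-1, a FOS protein without the activating region of FOS, and a known target of sustained ERK signalling. It had 109 counts (6.02 CPM) in the knockdown library and 5 counts (0.445 CPM) in the control library. The ratio of 13.5 was the highest of the family and the least certain, with an interval of 5.62 to 42.5. Only 16 measured genes had a higher ratio. Fosl1 reached the minimum of 1 CPM through the knockdown library alone, since its control level lay below it. Its exons overlap those of Ccdc85b on the other strand over 1155 bp, or 67.7% of its exon length, and reads touching both genes were left uncounted. Ccdc85b itself was at 20.5 CPM under knockdown and 15.4 CPM in control. Its log2 ratio of 0.42 (0.15 to 0.69) did not reach the rule of size.

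Fosl2 (chr5:32438845-32460212, plus strand, 4 exons) encodes FRA-2, the other FOS protein without that activating region. It stood apart from its relatives, with 2460 counts (136 CPM) in the knockdown library and 1726 counts (154 CPM) in the control library. The ratio was 0.885 (0.832 to 0.941). That interval leaves out 1, but the difference is smaller than the rule of size and there is no replicate to set it against. Since low counts spread more widely, the low members were also set beside genes of like level. Among 3002 measured genes with a mean under 10 CPM, 18.0% were higher, and 98.2% of them had a lower ratio than Fos.

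In the JUN genes only Junb was higher. Each of the 3 is a single-exon gene. Junb (chr8:87500808-87502647, minus strand), an immediate early JUN protein and a weaker activator than JUN, had 4350 counts (240 CPM) in the knockdown library and 797 counts (70.9 CPM) in the control library. The ratio was 3.39 (3.14 to 3.66), and 260 measured genes had a higher one. Jun (chr4:94715727-94718913, minus strand), the main partner of FOS, was at 169 CPM under knockdown and 179 CPM in control, from 3053 counts under knockdown and 2012 in control. Its ratio of 0.942 (0.890 to 0.997) was near 1. Jund (chr8:73221638-73224515, plus strand), the member usually expressed steadily, had 5353 counts (296 CPM) in the knockdown library and 4219 counts (375 CPM) in the control library. At 0.788 (0.756 to 0.820) it had the lowest ratio of the family.

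The 3 genes for proteins that mainly dampen or redirect AP-1 were all higher, with ratios from 2.17 to 2.93. Maff (chr15:79178108-79189506, plus strand, 3 exons), a small MAF protein that pairs with NRF2 and BACH proteins, had 1616 counts (89.2 CPM) in the knockdown library and 342 counts (30.4 CPM) in the control library. Its ratio was 2.93 (2.61 to 3.31). Atf3 (chr1:192994176-193007212, minus strand, 4 exons), induced by many stresses and a repressor as a homodimer, had 392 counts (21.6 CPM) under knockdown and 112 counts (9.97 CPM) in control. The ratio was 2.17 (1.76 to 2.70). Jdp2 (chr12:86940055-86980828, plus strand, 6 exons), which encodes JUN dimerization protein 2, a repressor of AP-1, had 429 counts (23.7 CPM) under knockdown and 121 counts (10.8 CPM) in control. At 2.20 (1.79 to 2.72) its ratio could not be told from that of Atf3.

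**Figure D2:**
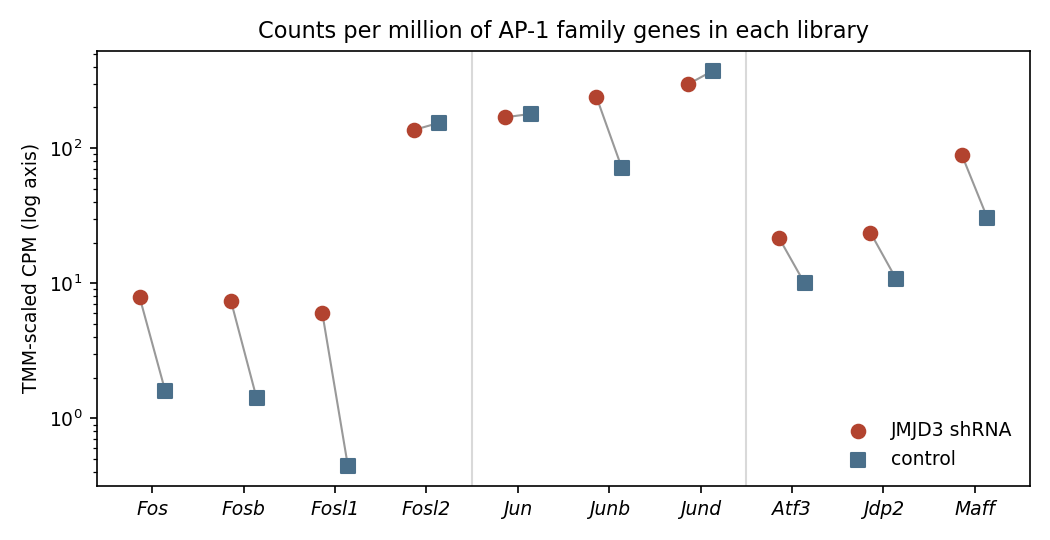
Levels in TMM-scaled CPM (log axis) of the 10 AP-1 family genes, with the knockdown library as circles and the control library as squares, 1 library each. Grey lines divide the FOS genes, the JUN genes and the other 3 members. Fos, Fosb and Fosl1 lie under 10 CPM in both libraries, and Junb lies at 240 CPM in the knockdown library and 70.9 CPM in the control library.

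**Figure D3:**
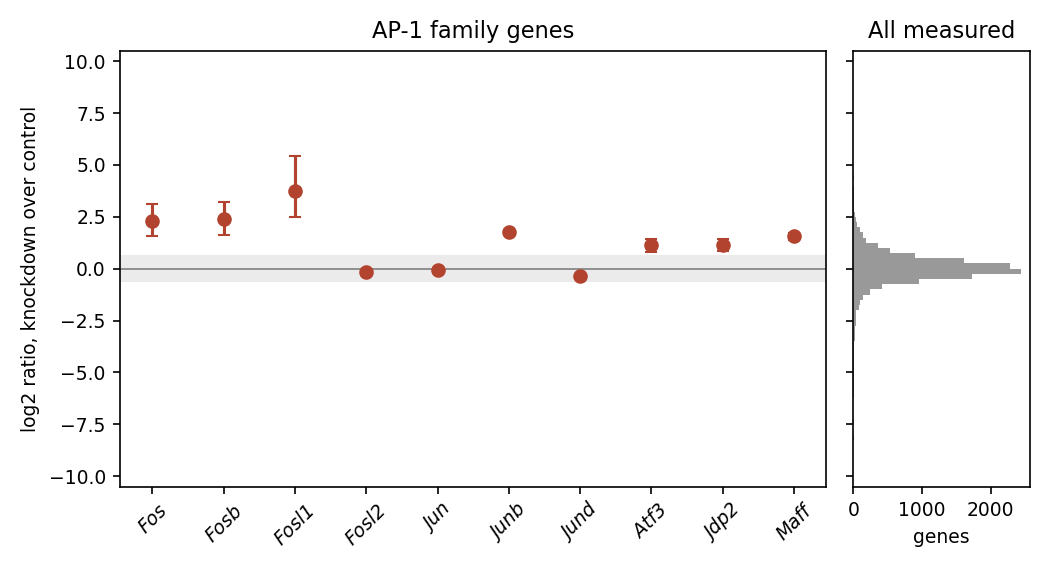
The log2 ratio of knockdown over control with its 95% counting interval for each AP-1 family gene (left) and the spread of the ratio over measured genes with counts in both libraries (right). The grey band marks ratios under 1.5-fold. The 7 higher genes lie above the band, and Fosl2, Jun and Jund lie inside it just under 0.

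The authors' deposited table of the comparison comes with no statement of its test or assumed spread. It rests on the same 2 libraries, 1 per group, so it is no independent support and its p-values cannot measure spread between cultures. Its log2 fold changes for the 7 higher genes ran from 1.12 for Atf3 to 3.73 for Fosl1. In the authors' deposited table the adjusted p-values of those 7 genes ran from 1.68e-14 for Junb to 0.000119 for Atf3. The authors' deposited table gives Fosl2 an adjusted p-value of 0.589, Jun 0.818 and Jund 0.223. By the same table of the authors, as deposited, 14.6% of 12838 genes had an adjusted p-value under 0.05 with a positive fold change.

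Levels of different genes were compared per exon length, as TPM (transcript levels scaled to a common total), computed from the counts and the deposited exon lengths. TPM divides by each library's total of counts per exon length, and no TMM scaling enters it. On this scale each gene's ratio between libraries, and the ratios of sums below, run higher than on the CPM scale. The rise comes from that total, since library totals without TMM shifted log2 ratios the other way, by a median of -0.04. Jun, for one, was at 133 TPM under knockdown and 131 TPM in control, while its CPM ratio was 0.942. The family summed to 984 TPM in the knockdown library and 653 TPM in the control library, a ratio of 1.51. The 7 higher genes made up 54.4% of that sum under knockdown and 24.1% in control. The sum of the other 3 genes was 449 TPM under knockdown and 496 TPM in control. Junb alone was 33.3% of the family level in the knockdown library and 13.7% in the control library. Jund, the most abundant member in control at 46.5%, was 26.2% under knockdown.

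JUN genes held most of the family level in both libraries. Their sum was 718 TPM in the knockdown library (73.1% of the family) and 524 TPM in the control library (80.3%). The FOS genes summed to 81.4 TPM under knockdown and 64.3 TPM in control, a ratio of 1.27, because Fosl2 outweighed the rest of that group. Fosl2 was at 58.2 TPM in the knockdown library and 61.0 TPM in the control library, 6.14 times the level of Fos under knockdown and 34.2 times in control. The sum of Atf3, Jdp2 and Maff was 184 TPM under knockdown and 64.5 TPM in control, a ratio of 2.85. Most of it was Maff, at 124 TPM in the knockdown library and 39.4 TPM in the control library.

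The order of levels differed at the top. In the knockdown library Junb (328 TPM) came before Jund (258 TPM), Jun (133 TPM), Maff, Fosl2, Jdp2 (31.6 TPM), Atf3 (27.5 TPM), Fos (9.47 TPM), Fosl1 (8.86 TPM) and Fosb (4.92 TPM). There the neighbours Jun and Maff, Jdp2 and Atf3, and Fos and Fosl1 had overlapping counting intervals. In the control library Jund (304 TPM) came before Jun (131 TPM), Junb (89.8 TPM), Fosl2, Maff, Jdp2 (13.3 TPM), Atf3 (11.7 TPM), Fos (1.78 TPM), Fosb (0.878 TPM) and Fosl1 (0.608 TPM). There Jdp2 overlapped Atf3, Fos overlapped Fosb, and Fosb overlapped Fosl1. The place of Fosl1 depends on its length: over the 550 bp free of Ccdc85b its level would be 27.5 TPM under knockdown and 1.88 TPM in control.

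**Figure D4:**
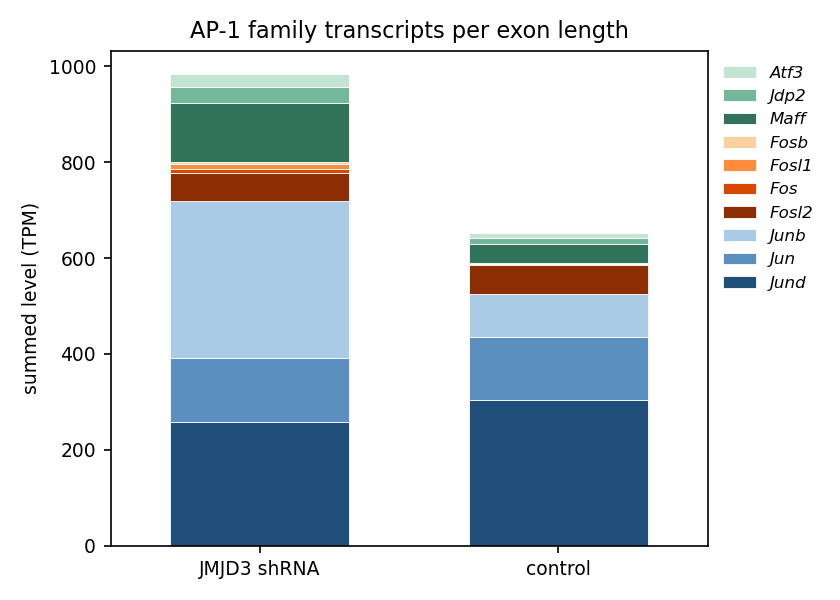
Summed level of the 10 AP-1 family genes in TPM (without TMM scaling), stacked by gene, for the knockdown and the control library. The knockdown bar reaches 984 TPM and the control bar 653 TPM, and the segments for Junb (328 TPM under knockdown, 89.8 TPM in control) and Maff (124 TPM under knockdown, 39.4 TPM in control) account for most of that gap.

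Most other immediate early genes were higher too, but not all. Of 20 sought, 17 were measured, 12 were higher and 3 lower, with a median log2 ratio of 1.31, beside 15.3% higher and 12.8% lower among all measured genes. Ctgf, a secreted matricellular protein and the most abundant of them, was at 1621 CPM under knockdown and 32.9 CPM in control. Plk2, a stress-responsive kinase, was at 578 CPM in the knockdown library and 233 CPM in the control library, a log2 ratio of 1.31. The 3 genes nearest to Fos (log2 2.30) were the zinc finger factor Egr1 at 2.32, with 108 CPM under knockdown and 21.6 CPM in control, and the Krüppel-like factors Klf6 at 1.94 and Klf10 at 1.85. All 3 lower genes were NR4A orphan nuclear receptors, which cyclic AMP induces through CREB: Nr4a3 at -6.13 and, named after their values were seen, Nr4a2 at -3.18 and Nr4a1 at -1.16. The ratio of Nr4a3 rests on 3 counts under knockdown and 130 in control, with an interval of -8.42 to -4.55. Fos, Fosb and Junb are also cyclic AMP targets, so known targets of that signal lay on both sides.

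Genes that AP-1 is known to activate did not lie on one side. Of 28 sought, 27 were measured, 9 were higher and 5 lower, beside 15.3% and 12.8% of all measured genes, and the median log2 ratio was 0.00. The cytokine Lif was the highest, at 60.6 CPM under knockdown and 6.05 CPM in control (log2 3.32). Other higher genes, named after their values were seen, were the urokinase receptor Plaur at 3.22, the chemokine Ccl2 at 2.68, the hyaluronan receptor Cd44 at 1.96 and the cyclin Ccnd1 at 1.58. The cytokine Il11 was the lowest, at 1.16 CPM under knockdown and 13.0 CPM in control (log2 -3.49, interval -4.22 to -2.82). The metallothioneins Mt1 at -1.40 and Mt2 at -1.14, named after their values were seen, were also lower. The most abundant members, the matrix protein Spp1 and the protease Mmp14, were at 0.04 and -0.01.

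In the kinase cascades that act on AP-1, kinases and their phosphatases lay on both sides of 1. Of 27 genes sought, 26 were measured, 6 were higher and 3 lower, with a median of 0.13, beside 15.3% higher and 12.8% lower among all measured genes. Dusp6, a phosphatase that switches off ERK and is itself an ERK target, was highest, at 214 CPM in the knockdown library and 30.4 CPM in the control library (log2 2.81). Dusp5, a nuclear ERK phosphatase named after its values were seen, was at 2.72, on 117 counts under knockdown and 11 in control. The phosphatase Dusp10, which acts on JNK and p38, was lower at -0.81, and Dusp16, the most abundant of the list, was at -0.19. The p38 kinase kinase Map2k6 was the lowest, at -1.40. Its fellow p38 kinase kinase Map2k3, named after its values were seen, was higher at 1.86. The JNK genes Mapk8 and Mapk9, likewise, were at 0.16 and -0.42 and did not pass.

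Of 15 transcriptional inputs of Fos and Jun, 14 were measured, 4 were higher and 2 lower, with a median of 0.33, beside the same 15.3% and 12.8% of all measured genes. Elk3, an ETS factor that acts with serum response factor, was highest at 1.21. Srf itself, which acts at the serum response element of Fos and was named after its values were seen, was at 1.19. Crem, whose products include a repressor of cyclic AMP responses, was the lowest, at 20.4 CPM under knockdown and 98.9 CPM in control (log2 -2.28). Stat3 was lower at -1.06, and the coactivator Ep300 at 0.54 did not pass. Creb1, also named after its values were seen, was at 0.01.

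Factors that control decay of Fos and Jun messages or proteins had 3 of 11 genes higher and 0 lower, with a median of 0.15, again beside 15.3% and 12.8%. Zfp36l1, which promotes decay of AU-rich messages, was both the most abundant and the highest, at 834 CPM under knockdown and 406 CPM in control (log2 1.04). The RNA-binding protein Khsrp was at 0.19. Rfwd2, the ubiquitin ligase COP1 that targets JUN, was the lowest at -0.04 with an interval of -0.17 to 0.09.

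Among 16 other zipper proteins that can pair with or compete with AP-1, 12 were measured, 3 were higher and 2 lower, with a median of 0.31. These counts lie near the 15.3% higher and 12.8% lower of all measured genes. Bach2, a repressor that pairs with small MAF proteins, was highest at 1.93 (1.47 to 2.43), on 271 counts under knockdown and 44 in control, and its exons overlap those of another gene. The large MAF gene Maf was the lowest, at -1.43. Nfe2l2, which encodes NRF2, the partner of MAFF in the antioxidant response, was lower at 825 CPM under knockdown and 1394 CPM in control (log2 -0.76). Atf4, the stress factor, was at 0.28 and did not pass. The small MAF genes closest to Maff, named after their values were seen, were Mafk at 0.63, which passed as higher, and Mafg at 0.52, which did not.

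**Figure D5:**
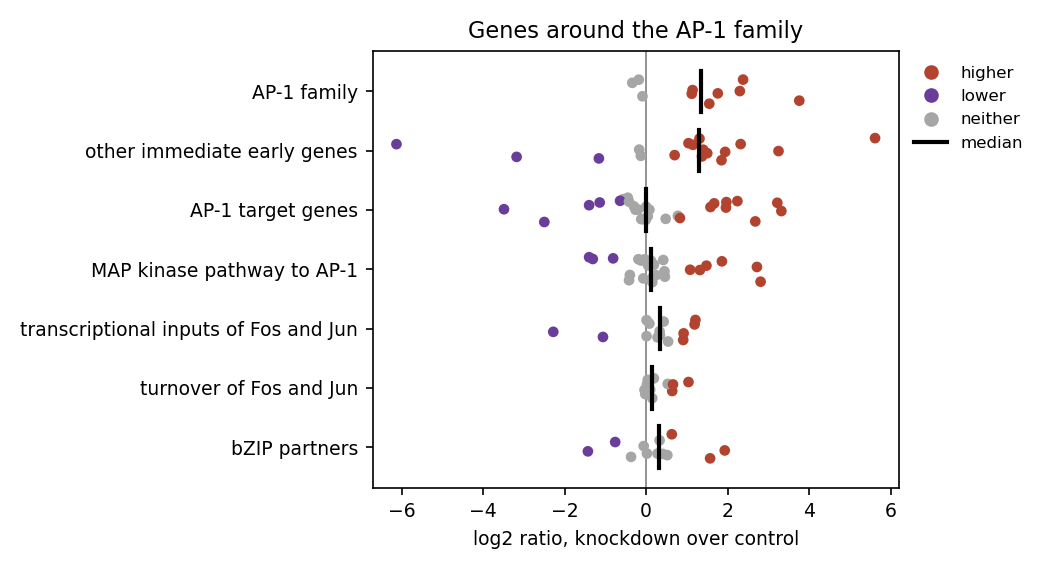
The log2 ratio of knockdown over control for each measured gene of the AP-1 family and of 6 other lists, coloured by whether the gene passed as higher, as lower or not at all, with a black line at the median. The AP-1 family and the other immediate early genes have medians of 1.35 and 1.31, while AP-1 target genes have a median of 0.00 with genes far out on both sides.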

How the data were processed

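Both libraries were sequenced from both fragment ends (100 bp reads), per the labels. The deposited values are read counts per gene, made by the authors with featureCounts 1.4.6-p4 without strand, from STAR alignments and UCSC mm9 gene models, per the file headers. STAR 2.5.3a, Trimmomatic 0.36 and edgeR are named, per the submitters' processing notes. The recorded command has no option for read pairs, so both reads of a pair can be counted, and reads that overlap several genes are dropped by default. The authors' deposited table holds log2 fold changes and p-values with no stated test. Its fold change had the sign of knockdown over control in 12824 of 12824 genes compared.

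Library totals multiplied by TMM factors scaled the counts (edgeR 4.0.16, R 4.3.3). Ratios carry exact conditional binomial (Clopper-Pearson) 95% intervals and levels exact Poisson ones (scipy 1.17.1). These cover counting error only and are too narrow where read pairs or PCR copies were counted separately. With 1 library per group no test was made, and the planned form of result was a size rule. The procedure was tested on simulated data. Members and lists were chosen with earlier results of these data known. Genes named by rule are all members and, per list, the 2 most abundant, the highest and the lowest, plus the 3 immediate early genes nearest to Fos. Further list genes were named after their values were seen, as stated where they appear. Marker lists are given as sums and counts. One further gene is not reported here. Promoter sequences are from RefSeq (GRCm38.p6), whereas gene coordinates are those of the files in mm9. Alternatives were scaling, minimum level, fold, exon length, the authors' fold change and, added after seeing the data, halved counts.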

Additional observations from a re-analysis of the deposited data

How the results depend on the processing

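The log2 ratio of each member was recomputed under 8 alternatives, or 7 for Fos, Fosb and Fosl1, which a minimum of 5 CPM removes. No member changed its call under any alternative it was measured in, including counts halved, and the widest range was that of Fosl1, from 3.72 to 4.07. With a minimum of 5 CPM 4 of 7 measured members were higher, beside 15.0% of all genes at that minimum. With the exon-length trend removed Fosl2 was at -0.41 and Junb at 1.89, and the median of the transcriptional inputs was 0.15. With a 2-fold rule, by which 7.35% of measured genes were higher, all 7 higher members still passed, whereas 2 transcriptional inputs and 1 turnover gene were higher. Of the zipper partners 1 was lower by that rule, and the share of all measured genes lower at 2-fold was not computed. As shares of raw counts, not per length, the FOS genes were 15.8% under knockdown and 18.8% in control, the JUN genes 70.7% under knockdown and 75.0% in control, and the other 3 members 13.5% under knockdown and 6.14% in control. Depth limits Fosl1 most, with 5 control counts. No paired analysis was possible because each group has 1 library.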

Other observations

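Apart from Fos and Jdp2, which lie beside each other, no gene beside a higher member passed as higher. The nearest measured gene on each side, without overlap, gave 18 genes that are not members. Of these, 0 passed as higher and 2 as lower, where 15.3% of all measured genes passed as higher and 12.8% as lower. Among the 18, 12 lay beside higher members. The rest lay beside Fosl2, Jun and Jund, which did not pass themselves. Beside Junb, Prdx2, a peroxiredoxin 2596 bp away, was at -0.51 and Hook2 at -0.23. Beside Fosb, Rtn2 was at 0.41 with an interval of -0.19 to 1.03 and Ercc1, a DNA repair gene, at 0.22. Beside Maff, Tmem184b, 1608 bp away, was at 0.48. Fos and Jdp2 are each other's nearest measured neighbours in mm9, 121836 bp apart on chromosome 12, and both were higher. The gene on the other side of Fos, Tmed10, was at -0.02 (-0.10 to 0.06). Mfsd7c, on the other side of Jdp2, was lower at -1.01 on 20 counts under knockdown and 25 in control. The other lower neighbour was Pde4c, a cyclic AMP phosphodiesterase beside Jund, at -0.81 (-1.24 to -0.38). These genes were picked by position alone.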
